A study of Mus musculus with 24 samples.

Results

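The proteasome is the barrel-shaped protease that degrades proteins tagged with ubiquitin. A 20S core built from alpha and beta rings holds the catalytic sites, a 19S cap recognises and unfolds the substrate with its ring of ATPases, and alternative caps such as PA28 open the core in other settings. In haematopoietic cells the catalytic beta subunits can be replaced by inducible ones, encoded by Psmb8, Psmb9 and Psmb10, which form the immunoproteasome and change the peptides supplied to MHC class I. Transcription of the constitutive subunits is held together by the factor Nfe2l1, while interferon signalling is known to raise the inducible subunits and PA28.

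The genes described here are the 48 rows of the table, of 15737 in all, whose mouse symbol is Psm followed by a letter from a to g and a number. They comprise 8 alpha subunits, 4 structural and 3 catalytic beta subunits, 4 inducible or tissue-specific beta subunits, 6 ATPases, 3 other subunits of the 19S base, 8 lid subunits, 3 chaperones of the 19S base, 4 activators, 1 inhibitor and 4 chaperones of core assembly. Of these, 46 had enough reads to be tested. The other two are tissue-restricted subunits, Psma8 of the testis and Psmb11 of the thymic cortex. Each had reads in 5 of 24 libraries, with at most 16.0 reads for Psma8 and 14.4 for Psmb11.

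The samples were basophils grown from bone marrow of wild-type (WT) mice and of mice lacking tristetraprolin (TTP-KO). Tristetraprolin, the product of Zfp36, binds AU-rich stretches in 3' untranslated regions and promotes decay of the bound mRNA. Per the labels, marrow was cultured for 7 days with IL-3 at 0.3 ng/mL, and all groups received TNP-specific IgE at 1 µg/mL and the uridine analogue 4-thiouridine (s4U) at 150 µM on day 6. Cells carrying CD49b were enriched with magnetic beads, and TNP-OVA at 10 ng/mL was given together with s4U for 1.5 h. After washing, the cells were collected at once (0 h) or after 1, 2 or 4 h in medium free of both. Every group, the 0 h groups included, had therefore been stimulated, and no unstimulated group was analysed here. Each of the 8 groups (2 genotypes at 4 times) had 3 libraries, which the table marks A, B and C. What the letters mark is not stated in the sources used here, and they were not used to pair libraries. Whether the 3 libraries of a group derive from different mice or cultures is not stated in the sources used here, and the p-values reflect only how much those libraries vary, which may be technical variation.

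The measurement used was the number of 3'-end reads per gene. Library totals ran from 8839260 to 25372890 reads, with TTP-KO 4 h libraries B and C the smallest. Levels are given as CPM on libraries scaled with TMM factors. Reads of a 3'-end library come from near the end of the RNA and not from its whole length, so levels were not divided by gene length. Levels of different genes compare reads near the 3' end only. The summed level of 10 basophil markers was 29794.0 to 44661.0 CPM, and all 10 had reads. Of 20 monocyte and macrophage markers 19 had reads and Cd163 had none. Their sum was higher in TTP-KO than in WT at every time: 2493 ± 38 CPM against 1167 ± 19 (SD, n = 3 each) at 0 h, and 1554 ± 196 against 759 ± 43 at 4 h. Both sums were lower at 4 h than at 0 h. The mast cell list (5 of 7 with reads, Mrgprb1 and Mrgprb2 at 0) summed to at most 293.3 CPM, the neutrophil list (7 of 7) to 2246.2 to 4167.6 CPM, the T and NK list (5 of 6, Gzma at 0) to at most 130.6 CPM and the dendritic and B cell list (7 of 7) to at most 343.8 CPM. Some of these also differed between genotypes without overlap. At 0 h the dendritic and B cell sum was 318.0 ± 11.4 CPM in TTP-KO and 174.0 ± 17.4 in WT, and the mast cell sum 137.6 ± 15.6 and 242.8 ± 8.7. At 4 h the neutrophil sum was 3248 ± 60 CPM in TTP-KO and 2395 ± 131 in WT. In bulk RNA, fewer cells of a type and less RNA per cell cannot be told apart. The mean of Zfp36 itself was lower in TTP-KO at each time. It was 184.7 ± 26.2 against 236.7 ± 27.8 CPM at 0 h (log2 difference -0.36 ± 0.24 SE, edgeR adjusted p = 0.796) and 46.3 ± 11.4 against 126.4 ± 21.5 CPM at 1 h (-1.45 ± 0.24, adjusted p = 0.000116). At 2 h the difference was -0.915 ± 0.24 (edgeR adjusted p = 0.0652). At 4 h it was -0.87 ± 0.24 (0.0422), with overlapping groups. The 4 h difference did not pass with DESeq2 (adjusted p = 0.164) or in 4 of 6 edgeR fits that left out 1 library. The 3' reads of Zfp36 may lie outside the deleted part, so they do not check the genotype.

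Promoter sequences are shown for 4 members whose RNA moved in opposite directions over the chase and which the RefSeq table held. Each is the 250 bases before the start of transcription, 5' to 3' on the gene's strand, in build GRCm38.p6. Capitals mark a match on either strand to TGANNNNGC or to CCAAT. TGANNNNGC is a loose form of the core of the antioxidant response element that Nfe2l1 and Nfe2l2 use. The first pair, inducible Psmb9 (chr17:34187331-34187580, minus strand) and the PA28 subunit Psme1 (chr14:55578244-55578493, plus strand), fell. The second pair, the constitutive catalytic subunit Psmb5 (chr14:54617996-54618245, minus strand) and the ATPase Psmc1 (chr12:100109952-100110201, plus strand), rose.
Psmb9: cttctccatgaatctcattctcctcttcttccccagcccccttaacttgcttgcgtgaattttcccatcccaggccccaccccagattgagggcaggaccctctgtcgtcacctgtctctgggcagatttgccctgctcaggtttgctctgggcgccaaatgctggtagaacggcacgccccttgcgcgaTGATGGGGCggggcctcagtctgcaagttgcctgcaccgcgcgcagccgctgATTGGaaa
Psme1: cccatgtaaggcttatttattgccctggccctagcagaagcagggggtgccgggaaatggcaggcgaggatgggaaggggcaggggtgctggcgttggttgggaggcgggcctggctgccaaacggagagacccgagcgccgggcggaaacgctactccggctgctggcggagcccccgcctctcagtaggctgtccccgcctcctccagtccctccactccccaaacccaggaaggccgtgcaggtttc
Psmb5: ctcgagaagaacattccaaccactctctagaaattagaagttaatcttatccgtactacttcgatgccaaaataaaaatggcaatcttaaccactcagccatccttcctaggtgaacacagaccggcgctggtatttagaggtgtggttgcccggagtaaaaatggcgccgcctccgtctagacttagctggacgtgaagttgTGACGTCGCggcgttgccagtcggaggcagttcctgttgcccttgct
Psmc1: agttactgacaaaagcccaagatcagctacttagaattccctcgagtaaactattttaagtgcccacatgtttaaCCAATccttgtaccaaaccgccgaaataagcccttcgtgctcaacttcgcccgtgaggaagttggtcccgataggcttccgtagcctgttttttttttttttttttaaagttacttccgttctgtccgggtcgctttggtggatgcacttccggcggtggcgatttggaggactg

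A TGANNNNGC match lies 60 bases before the start in Psmb9 and 47 bases before it in Psmb5, in 1 member that fell and 1 that rose. A CCAAT match lies 8 bases before the start of Psmb9, on the opposite strand, and 175 bases before that of Psmc1. The window of Psme1 holds neither. Across the family, 40 of 48 members matched a RefSeq promoter. TGANNNNGC occurred in 16 of these 40 (40%), against 35.2% of 32851 promoters and 41.7% of the 10039 tested genes that matched a promoter. Members and tested genes were each counted once, by a match in any listed promoter of the gene. The first share counts single promoters, an unlike unit, here and for the motifs below. CCAAT occurred in 14 (35%), against 33.8% and 41.1%. GAAANNGAA, the core of the interferon-stimulated response element, occurred in 3 (7.5%; Psmb3, Psmd4 and Psmd9), against 7.13% and 7.57%. All motifs were searched on both strands, and a match is a run of letters, not a shown binding site.

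The sequence that tristetraprolin binds was less frequent in the 3' untranslated regions of the family than in those of all genes tested, by count. The 7-base core TATTTAT occurred in 4 of 48 members (8.33%; Psma2, Psmb1, Psmc6 and Psme3), against 32% of 12785 tested genes. The 9-base form TTATTTATT occurred in 1 member, Psmb1 (2.08%), against 9.01%. The family's regions were also short, with a median longest 3' untranslated region of 298 bases against 1178 bases over the tested genes, and a shorter region has fewer places for a match. These regions come from the GENCODE M21 annotation of GRCm38. The Psmb1 site, shown because it is the family's single full match, reads as follows with the 9-base motif in capitals.
Psmb1: ggatatatTTATTTATTttgagatt

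The difference between TTP-KO and WT was examined first, because the study asks what loss of tristetraprolin does to these RNAs. Few members differed by the test. At 0 h, 1 h and 2 h none of the 46 tested members passed the test (edgeR quasi-likelihood test, Benjamini-Hochberg adjusted p under 0.05 over 12936 genes), and a gene is called below where it passed that test, unless another fit is named. At 4 h a single member, Psmb7, did. Among all tested genes 0.526% were called at 0 h, 0.502% at 1 h, 0.518% at 2 h and 1.82% at 4 h. At an unadjusted p under 0.05 the members numbered 7, 3, 5 and 5 at the 4 times, against 900, 916, 943 and 1529 of all genes. These were 15.2%, 6.52%, 10.9% and 10.9% of the members tested, and 6.96%, 7.08%, 7.29% and 11.8% of all genes. DESeq2 called 1 member at 0 h, none at 1 h, 1 at 2 h and 4 at 4 h. The share of all genes that DESeq2 called is not given here, so its member counts, here and below, cannot be set against one. The median log2 difference of the members was 0.02, 0.06, 0.15 and 0.16, while that of all genes lay between -0.01 and 0.00.

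Psmb7 encodes the constitutive beta subunit with trypsin-like activity. At 4 h its level was 100.0, 99.4 and 104.7 CPM in the 3 TTP-KO libraries and 46.5, 73.0 and 56.9 CPM in the WT libraries. The groups did not overlap, and the log2 difference was 0.79 ± 0.21 (SE), 1.72-fold, with an edgeR adjusted p of 0.0337. Psmb7 also lay higher in all TTP-KO libraries at 0 h (84.5, 69.1 and 68.1 against 62.0, 58.2 and 48.9 CPM) and at 2 h (74.8, 101.6 and 71.7 against 56.6, 56.9 and 56.7 CPM). At 1 h the groups overlapped, at 66.5, 77.6 and 64.1 against 44.1, 65.3 and 47.4 CPM. At these earlier times the differences of 0.39, 0.41 and 0.54 did not pass the test (edgeR adjusted p = 0.733, 0.703 and 0.429). The call at 4 h was lost when only the groups compared were fitted (adjusted p = 0.169), without WT 4 h library A (0.221) or C (0.106), without TTP-KO 4 h library B (0.0838) or C (0.12), and without both of the last (0.349, log2 difference 0.76). Of the values that make up the Psmb7 row, 58.3% were not whole numbers, which can arise where reads map to several loci. The macrophage and the dendritic and B cell marker sums were also higher in TTP-KO, and their part in this difference was not tested.

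**Figure D1:**
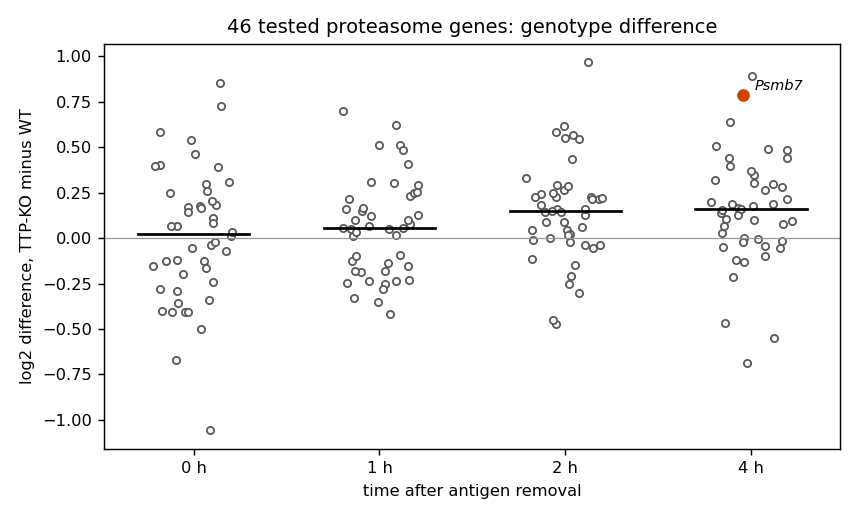
Log2 difference in level between TTP-KO and WT (vertical axis) for each of the 46 tested members at 0, 1, 2 and 4 h after antigen removal (horizontal axis, points spread sideways for display). The bar is the members' median, which runs from 0.02 at 0 h to 0.16 at 4 h, and the filled point is Psmb7, the single member past the adjusted threshold.

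A member that came close at 0 h was Psmd13, a lid subunit, named here after its values were seen. It read 108.0, 82.5 and 90.2 CPM in TTP-KO against 136.0, 159.3 and 151.6 CPM in WT, without overlap (log2 difference -0.67 ± 0.17, edgeR adjusted p = 0.0583). DESeq2 called it (adjusted p = 0.0111), as did the edgeR fit with library size alone (0.0435), without a filter (0.0147), on the 2 groups alone (0.0408) or without TTP-KO 0 h library A (0.0364). At 4 h the genotypes overlapped in Psmd13, at 227.8, 184.3 and 160.6 CPM in TTP-KO and 213.5, 187.4 and 188.5 CPM in WT. Its rise was accordingly steeper in TTP-KO by value (1.03 ± 0.17 against 0.40 ± 0.17), but the difference between those rises, 0.63 ± 0.24, did not pass the test (edgeR adjusted p = 0.423).

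At 2 h and 4 h more members were called over the chase than between genotypes. At 4 h the members that rose in both genotypes were constitutive subunits, 4 of the 19S cap and 1 of the core, and the member that fell in both was the PA28 subunit Psme1. At 2 h the inducible subunits Psmb8 and Psmb9 also fell in both. The family's summed level was 3744 ± 74 CPM at 0 h, 3875 ± 46 at 1 h, 3957 ± 230 at 2 h and 4385 ± 124 at 4 h in WT (SD, n = 3 each). In TTP-KO it was 3644 ± 86, 3993 ± 187, 4352 ± 59 and 4752 ± 61 CPM. By 4 h all 3 libraries of each genotype lay above its 0 h libraries. The sum is a description and was not tested.

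At 1 h few members had changed. None was called in WT, where 2.33% of all genes were, although DESeq2 called 2, Psmd7 and Psme1. In WT 9 members (19.6%) had an unadjusted p under 0.05, against 1592 of all genes (12.3%). In TTP-KO 1 member rose and 1 fell, with 2.74% of all genes called. The ATPase Psmc2 rose from 68.3, 65.0 and 60.5 CPM to 88.2, 120.0 and 108.7 CPM (log2 change 0.71 ± 0.20, edgeR adjusted p = 0.0376). The inducible subunit Psmb8 fell by 0.79 ± 0.22 on the log2 scale (adjusted p = 0.0359). Both calls depended on single libraries. Without each library in turn the number called in TTP-KO at 1 h was 0 to 1, and it was 0 without TTP-KO 0 h library A or C or 1 h library C.

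At 2 h, 2 of 46 tested members rose and 3 fell in WT, and 9 rose and 3 fell in TTP-KO. Members called in either direction made up 10.9% in WT and 26.1% in TTP-KO. Of all genes 3.58% rose and 6.47% fell in WT, and 4.12% rose and 5.77% fell in TTP-KO. The WT counts and the TTP-KO falls were near these shares and are not read as a result about the family. The share of members that rose in TTP-KO was above that of all genes. Psmd7, a lid subunit, was the member that rose in both. Psmb8, Psmb9 and Psme1 fell in both. Of all 12936 genes tested, 223 rose in both and 543 fell in both at 2 h. In WT the second riser was Psmd5, a chaperone of the 19S base (14.8 to 36.1 CPM, log2 change 1.29 ± 0.37, edgeR adjusted p = 0.0156), whose call was lost without WT 0 h library C (0.164) or 2 h library A (0.133) and in a fit of the groups compared (0.0618). In TTP-KO the 4 largest rises were those of the core assembly chaperone Psmg3 (1.30 ± 0.30), Psmd7 (1.16 ± 0.18), Psmd13 (1.01 ± 0.17) and Psmc2 (0.95 ± 0.20). The WT count was 3 without WT 0 h library C or 2 h library C.

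At 4 h, 9 of 46 tested members rose and 3 fell in WT, and 13 rose and 2 fell in TTP-KO. Members called in either direction made up 26.1% in WT and 32.6% in TTP-KO. Among all genes 6.76% rose and 9.97% fell in WT, and 7.45% rose and 10.6% fell in TTP-KO. In both genotypes the share of members that rose was above that of all genes, and the share that fell was below it. The members' median log2 change was 0.20 in WT and 0.39 in TTP-KO, beside 0.06 and 0.08 over all genes, and 33 and 36 of 46 members lay above 0. The 5 members that rose in both genotypes were Psmb5, Psmc1, Psmd3, Psmd4 and Psmd7, and the 1 that fell in both was Psme1. Of all 12936 genes tested, 468 rose in both and 985 fell in both at 4 h. The WT and TTP-KO counts come from separate 0 h groups, but all groups share 1 estimate of the spread. Under scaling by library size alone the median log2 change of all genes was 0.38 in WT and 0.45 in TTP-KO at 4 h. At 2 h it was 0.26 and 0.23, beside 0.01 and 0.02 under TMM. At 4 h that scaling gave 20 rising and 1 falling member in WT and 27 and 2 in TTP-KO. At 2 h it gave 11 and 2 in WT and 16 and 3 in TTP-KO. Under that scaling 1831 of all genes rose and 748 fell in WT at 4 h, and 2156 rose and 818 fell in TTP-KO, in place of 875 and 1290 and of 964 and 1372. At 2 h 1033 of all genes rose and 414 fell in WT, in place of 463 and 837. In TTP-KO 1002 rose and 447 fell at 2 h, in place of 533 and 746. Without WT 0 h library C the WT count at 4 h was 7.

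**Figure D2:**
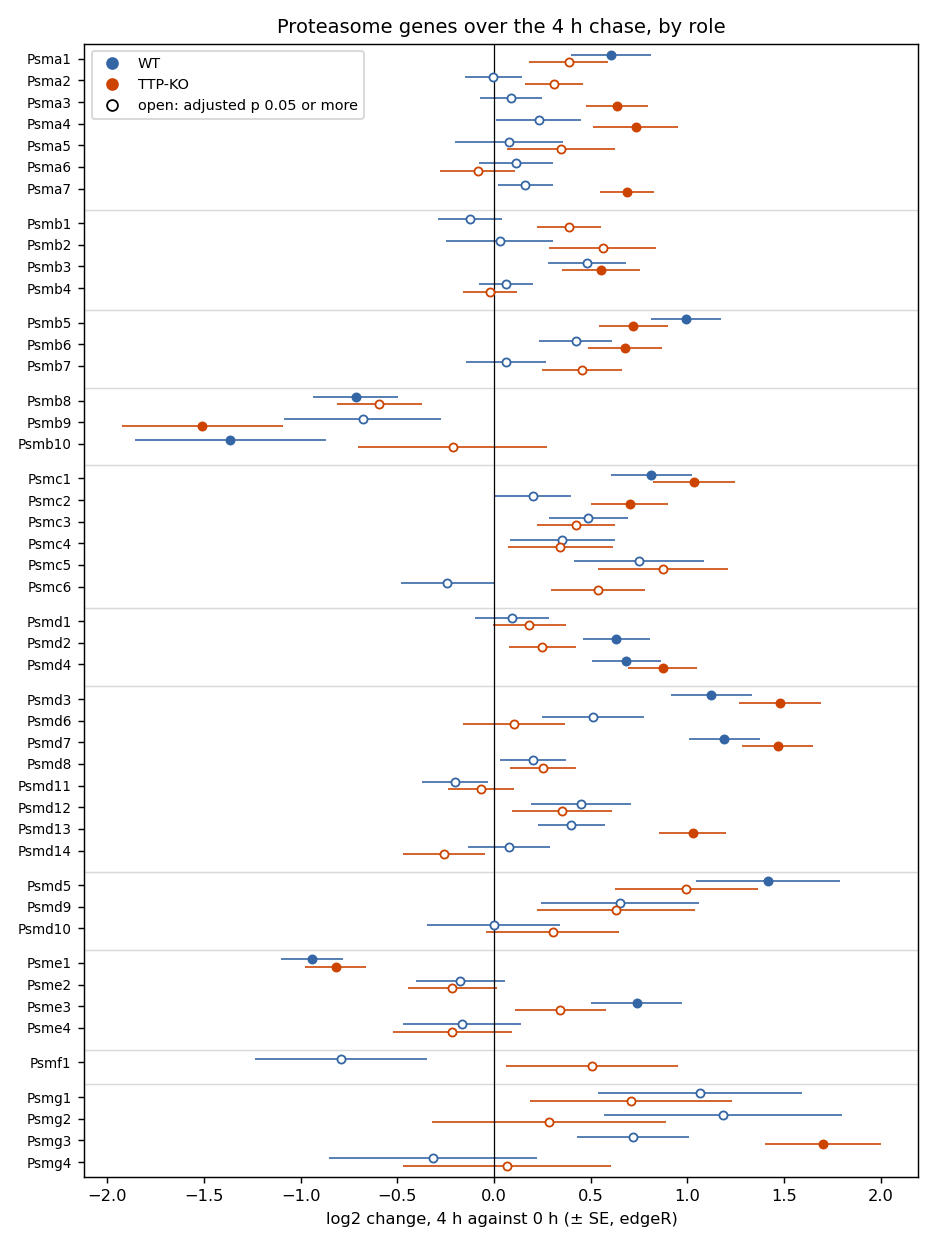
Log2 change in level from 0 h to 4 h (horizontal axis, ± SE from edgeR) for each tested member (vertical axis), in WT and TTP-KO, with lines between role groups. Filled points passed the adjusted threshold. Inducible subunits and Psme1 sit to the left of 0, and Psmd3 and Psmd7 sit farthest to the right among points filled in both genotypes.

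By role, the lid held the members with the largest rises called in both genotypes. Psmd7 stood at 58.2, 56.2 and 59.6 CPM at 0 h and 121.7, 130.3 and 145.3 CPM at 4 h in WT. In TTP-KO it stood at 52.3, 59.2 and 48.6 CPM and then 152.8, 115.3 and 174.6 CPM. Every 4 h library was above every 0 h library, and the log2 changes were 1.19 ± 0.18 in WT (2.28-fold, edgeR adjusted p = 1.55e-06) and 1.47 ± 0.18 in TTP-KO (2.77-fold, 1.43e-08). At 2 h Psmd7 was intermediate, at 102.6, 99.1 and 89.6 CPM in WT and 102.8, 127.5 and 127.2 CPM in TTP-KO.

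Psmd3, another subunit of the lid, went from 63.6, 49.7 and 61.7 CPM to 133.9, 129.4 and 118.1 CPM in WT. In TTP-KO it went from 39.1, 51.3 and 46.2 CPM to 144.8, 100.6 and 134.9 CPM. The groups did not overlap in either genotype. The log2 changes were 1.12 ± 0.21 (edgeR adjusted p = 5.65e-05) and 1.48 ± 0.21 (3.26e-07). Psmd13 was called in TTP-KO (1.03 ± 0.17, adjusted p = 8.91e-06) and, under library size alone, in WT as well (0.72, adjusted p = 0.00111), with the test of the difference given above. The deubiquitinase Psmd14 and the subunits Psmd6, Psmd8, Psmd11 and Psmd12 were called in no comparison. Psmd12 read 30.5 CPM at 0 h and 41.7 at 4 h in WT, and 44.4 and 56.7 in TTP-KO (0.45 ± 0.26 and 0.35 ± 0.26).

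In the 19S base, Psmc1 was the ATPase called at 4 h in both genotypes. It read 72.5, 70.3 and 46.5 CPM at 0 h and 105.3, 121.9 and 105.5 CPM at 4 h in WT (0.81 ± 0.21, edgeR adjusted p = 0.00368). In TTP-KO it read 39.1, 56.3 and 60.8 CPM and then 115.7, 107.1 and 96.8 CPM (1.03 ± 0.21, 0.000181). The 4 h libraries lay above all 0 h libraries in both. The call in WT was lost without WT 0 h library C (adjusted p = 0.0602), whose value of 46.5 CPM was the lowest of its group. Of the Psmc1 values 75% were not whole. Psmc2 was called in TTP-KO (0.70 ± 0.20, adjusted p = 0.00838), and the other 4 ATPases in neither genotype. All 6 ATPases lay above 0 in TTP-KO and 5 of 6 in WT, where Psmc6 was at -0.24.

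Psmd4, the ubiquitin receptor of the base, read 171.6, 167.2 and 112.9 CPM at 0 h and 221.2, 250.6 and 254.3 CPM at 4 h in WT. In TTP-KO it read 106.6, 119.6 and 116.1 CPM and 185.2, 227.7 and 214.3 CPM. Neither genotype overlapped between times (0.69 ± 0.18, edgeR adjusted p = 0.00377, and 0.87 ± 0.18, 0.000177). Without WT 0 h library C the WT value was 0.51 (adjusted p = 0.0669). Psmd2, a scaffold of the base, was called in WT at 110.7 and 171.7 CPM (0.63 ± 0.17, adjusted p = 0.00624) and not in TTP-KO at 98.6 and 117.1 CPM (0.25 ± 0.17, adjusted p = 0.336). Psmd1 was called in neither. Of the chaperones of the base, Psmd5 rose in WT from 14.8 to 39.4 CPM (1.42 ± 0.37, adjusted p = 0.00449; 1.04 and 0.0667 without WT 0 h library C), while Psmd9 and Psmd10 were not called.

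In the 20S core, the constitutive catalytic subunit Psmb5, which carries chymotrypsin-like activity, rose in both genotypes. It read 72.6, 79.5 and 82.9 CPM at 0 h and 147.1, 168.8 and 151.7 CPM at 4 h in WT (0.99 ± 0.18, 1.99-fold, edgeR adjusted p = 3.63e-05). In TTP-KO it read 85.5, 84.4 and 109.7 CPM and 187.6, 137.9 and 135.2 CPM (0.72 ± 0.18, 1.65-fold, 0.00233). Of its values 70.8% were not whole. Psmb6, with caspase-like activity, read 77.2, 75.9 and 90.3 CPM and then 123.0, 82.9 and 120.0 CPM in WT, with overlap (0.42 ± 0.19, adjusted p = 0.135). In TTP-KO it rose from 95.9, 72.9 and 85.8 CPM to 133.5, 117.9 and 156.1 CPM (0.68 ± 0.19, adjusted p = 0.00765). The Psmb6 call in TTP-KO was lost without TTP-KO 0 h library B (0.062), 4 h library C (0.0541) or 4 h libraries B and C (0.0879), and under library size alone Psmb6 was called in WT too (0.74, 0.00259). The third catalytic subunit, Psmb7, was not called at 4 h against 0 h in either genotype by edgeR (0.06 ± 0.21 in WT and 0.46 ± 0.21 in TTP-KO, adjusted p = 0.923 and 0.126). In TTP-KO it was called by DESeq2 (0.50, adjusted p = 0.0396) and under library size alone (0.83, 0.00265).

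Of 7 tested alpha subunits, Psma1 was called in WT (71.3 to 108.4 CPM, 0.61 ± 0.21, edgeR adjusted p = 0.0351). Psma3, Psma4 and Psma7 were called in TTP-KO, at 0.64, 0.73 and 0.69. The ring's median was 0.11 in WT and 0.39 in TTP-KO. Of the Psma3 values 95.8% were not whole, the highest share in the family. The calls of Psma3 and Psma4 were lost without TTP-KO 4 h libraries B and C together (0.38, adjusted p = 0.429, and 0.27, 0.72), and that of Psma1 without any of 5 single libraries (adjusted p from 0.0546 to 0.146). Among the structural beta subunits Psmb3 was called in TTP-KO (0.55 ± 0.20, adjusted p = 0.0479), with overlapping groups, and Psmb1, Psmb2 and Psmb4 were called by edgeR in no comparison, while DESeq2 called Psmb2 between genotypes at 2 h. The Psmb3 call was lost in a fit of the groups compared (0.144) and without TTP-KO 0 h library A (0.0561) or C (0.215) or 4 h library A (0.535).

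**Figure D3:**
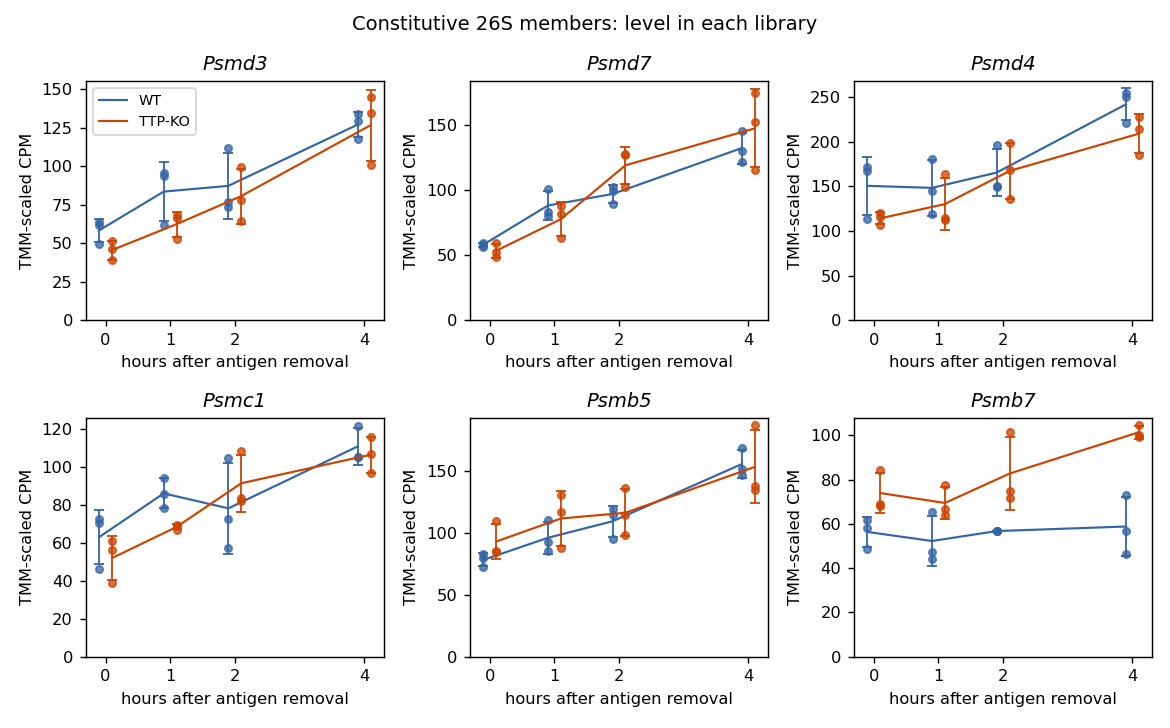
Level in CPM (vertical axis) in each library at 0, 1, 2 and 4 h after antigen removal (horizontal axis) for 6 constitutive members, with points for libraries, lines through group means and bars for SD (n = 3). Psmd3, Psmd7, Psmd4, Psmc1 and Psmb5 are higher at 4 h than at 0 h in both genotypes, and for Psmb7 the TTP-KO points lie above all WT points at 0, 2 and 4 h.

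Of the inducible catalytic subunits, Psmb8 and Psmb9 fell in both genotypes at 2 h, and Psmb10 was called in WT at 4 h. Psmb8, which replaces Psmb5, read 100.2, 90.8 and 93.8 CPM at 0 h in WT, 69.2, 53.9 and 49.3 CPM at 2 h and 56.0, 59.4 and 58.1 CPM at 4 h. The later libraries were all below the 0 h ones, with an edgeR log2 change of -0.72 ± 0.22 at both times, called with adjusted p-values of 0.023 and 0.0166. In TTP-KO Psmb8 read 113.2, 86.4 and 98.7 CPM at 0 h, 53.6, 52.8 and 49.1 CPM at 2 h and 77.7, 57.0 and 63.0 CPM at 4 h. Its change there was -0.94 ± 0.22 at 2 h, with an adjusted p of 0.00221. At 4 h it was -0.59 ± 0.22, which missed the threshold at 0.0522, again without overlap. DESeq2 called that 4 h fall (-0.55, adjusted p = 0.0399), as did edgeR without TTP-KO 0 h library B (0.0476) or 4 h library A (0.0365). Under scaling by library size alone the WT values were -0.47 (adjusted p = 0.183) and -0.39 (0.216), so in WT the call depends on the scaling. In WT the 2 h call was also lost without WT 0 h library A (0.0775) or C (0.0558) or 2 h library B (0.0812) or C (0.122), and the 4 h call without WT 0 h library A (0.0596) or 4 h library A (0.0526).

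Psmb9, which replaces Psmb6, read 37.1, 44.1 and 26.1 CPM at 0 h in WT and 8.83, 19.1 and 9.22 CPM at 2 h. In TTP-KO it read 24.6, 55.6 and 38.4 CPM at 0 h and 15.3, 11.4 and 11.9 CPM at 2 h. The groups were separate in both genotypes, and the falls were the largest in the family at that time, at -1.53 ± 0.41 in WT (2.90-fold, edgeR adjusted p = 0.00912) and -1.62 ± 0.41 in TTP-KO (3.07-fold, 0.00583). At 4 h Psmb9 was at 21.3, 27.3 and 18.4 CPM in WT, overlapping 0 h (-0.68 ± 0.41, adjusted p = 0.275), and at 10.7, 15.0 and 16.1 CPM in TTP-KO (-1.51 ± 0.41, adjusted p = 0.00624). The difference between those 4 h changes, -0.83 ± 0.57, did not pass the test (adjusted p = 0.783). The TTP-KO calls were lost without 0 h library B, the highest one (-1.29, adjusted p = 0.0757 at 2 h and -1.18, 0.0772 at 4 h). The WT call at 2 h was lost without WT 0 h library B (0.0596) or 2 h library A (0.0752) or C (0.0628).

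Psmb10, which replaces Psmb7, had the lowest mean of the 3 inducible subunits in both genotypes at 0 h and at 4 h, though not at 2 h. In TTP-KO its change from 0 h was 0.92 ± 0.49 at 1 h and 0.39 ± 0.49 at 2 h (edgeR adjusted p = 0.454 and 0.744). In WT it read 16.6, 22.5 and 32.6 CPM at 0 h and 10.2, 7.38 and 10.3 CPM at 4 h (-1.36 ± 0.49, edgeR adjusted p = 0.0495). This call was lost without the filter on low counts (0.0661), under library size alone (-1.04, 0.143) and without any of 5 single libraries (adjusted p from 0.0916 to 0.248). In TTP-KO it started lower, at 11.3, 10.6 and 12.6 CPM, below every WT library (-1.06 ± 0.49, adjusted p = 0.675), and ended at 5.57, 10.7 and 13.6 CPM (-0.21 ± 0.49, adjusted p = 0.836; 0.16 under library size alone). The difference between the genotypes' changes, 1.15 ± 0.69, did not pass the test (adjusted p = 0.697).

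The activators did not move as 1 unit. Psme1 and Psme2 encode the subunits of PA28, the cap usually induced together with the immunoproteasome. Psme1 read 236.9, 211.9 and 221.2 CPM at 0 h in WT, 148.7, 161.7 and 155.9 CPM at 1 h, 148.1, 121.6 and 112.3 CPM at 2 h and 94.7, 128.2 and 126.0 CPM at 4 h. In TTP-KO it read 184.3, 174.4 and 208.2 CPM, then 139.8, 129.4 and 149.6 CPM, then 127.6, 98.7 and 104.4 CPM, and 95.5, 113.9 and 112.0 CPM at 4 h. Every library from 1 h on was below every 0 h library of its genotype. The changes at 2 h were -0.81 ± 0.16 in WT and -0.78 ± 0.16 in TTP-KO (edgeR adjusted p = 0.000218 and 0.000381), and at 4 h they were -0.94 ± 0.16 and -0.82 ± 0.16 (9.57e-06 and 8.54e-05). These 4 calls were kept in every alternative run, including scaling by library size alone.

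Psme2, its partner, read 57.0, 70.0 and 72.8 CPM at 0 h and 69.9, 58.3 and 49.0 CPM at 4 h in WT. In TTP-KO it read 66.2, 72.1 and 91.7 CPM and 52.4, 66.1 and 79.7 CPM. The groups overlapped (-0.17 ± 0.23 and -0.22 ± 0.23, edgeR adjusted p = 0.707 and 0.583), and under library size alone the values were 0.15 and 0.16. Psme3, which forms a nuclear cap of its own, was called at 4 h in WT (53.9 to 90.0 CPM, 0.74 ± 0.24, adjusted p = 0.0221), with overlapping groups. That call was lost without WT 0 h library A (0.119) or B (0.12) or 4 h library A (0.127) or B (0.0583). Psme4 and the inhibitor Psmf1 were called in no comparison.

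**Figure D4:**
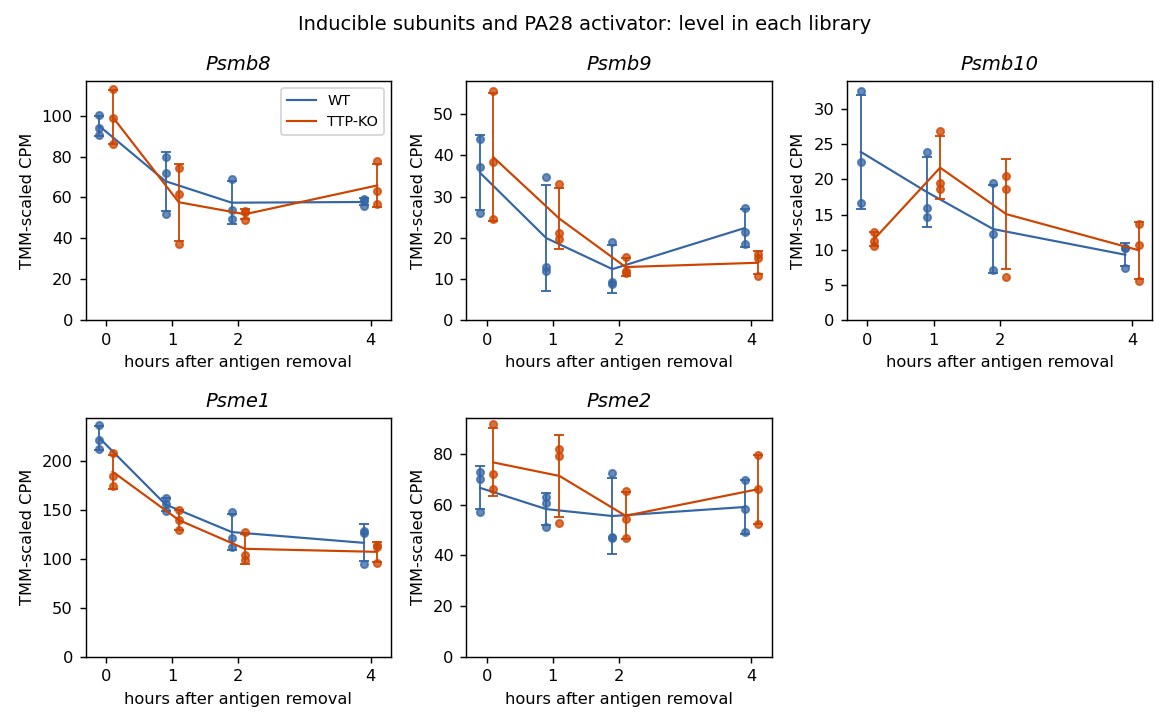
Level in CPM (vertical axis) in each library at 0, 1, 2 and 4 h after antigen removal (horizontal axis) for the 3 inducible catalytic subunits and both PA28 genes, with points for libraries, lines through group means and bars for SD (n = 3). Psmb8, Psmb9 and Psme1 are lower at 2 h than at 0 h in every library of both genotypes, while the Psme2 points overlap between times except at 2 h in TTP-KO.

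Taking both sets of catalytic subunits as one pool, the share of reads from Psmb8, Psmb9 and Psmb10 in the sum of all 6 genes was 41.7% ± 0.9 at 0 h in WT, 30.1% ± 3.5 at 1 h, 24.7% ± 1.5 at 2 h and 21.7% ± 0.8 at 4 h (SD, n = 3 each). In TTP-KO it was 37.5% ± 2.5, 26.2% ± 4.2, 19.3% ± 1.3 and 18.7% ± 0.4. The WT libraries lay above the TTP-KO libraries at 0, 2 and 4 h, and the groups overlapped at 1 h. The share is given as a description with no test, because it is a score over chosen members. The summed level of the inducible subunits was 154.6 ± 2.5 CPM at 0 h, 82.8 ± 4.1 at 2 h and 89.5 ± 4.0 at 4 h in WT. In TTP-KO it was 150.5 ± 1.8, 79.8 ± 11.1 and 89.8 ± 6.2 CPM. The sum of Psmb5, Psmb6 and Psmb7 was 215.8 ± 5.5, 253.0 ± 27.4 and 323.3 ± 6.1 CPM in WT at those times. In TTP-KO that sum was 251.9 ± 22.2, 331.8 ± 29.6 and 390.8 ± 33.3 CPM. The share thus reflects both sums, and from 2 h to 4 h only the second one moved in the direction that lowers it. With Psmb8 and Psmb5 alone the share was 54.8% at 0 h and 27.1% at 4 h in WT, and 51.7% and 30.1% in TTP-KO, so at 4 h the order of the genotypes was the other way round. The macrophage marker sums given above were lower at 4 h than at 0 h in both genotypes, and their part in these values was not tested.

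**Figure D5:**
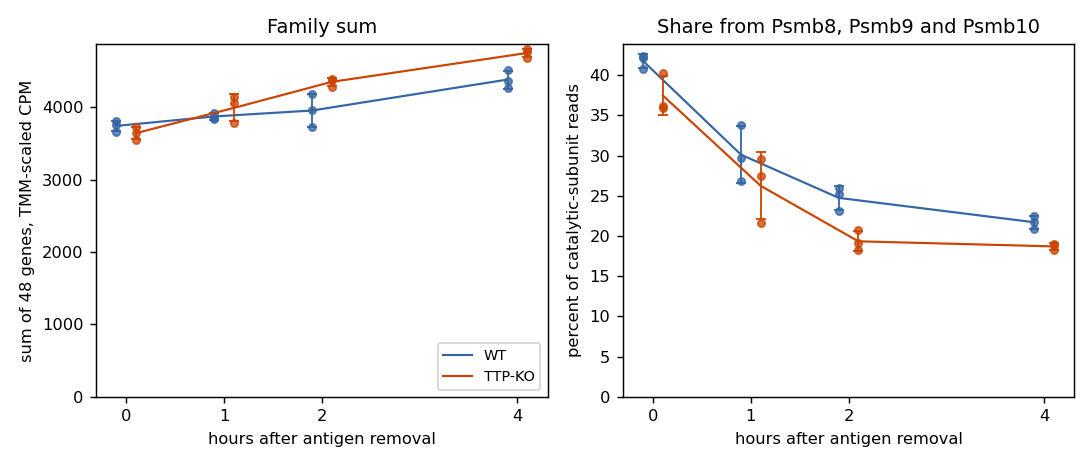
Left, the summed level of the 48 genes in CPM, and right, the percent of catalytic-subunit reads that came from Psmb8, Psmb9 and Psmb10 (vertical axes), in each library at 0, 1, 2 and 4 h (horizontal axes), with lines through group means and bars for SD (n = 3). The sum is highest at 4 h (4385 CPM in WT and 4752 CPM in TTP-KO), and the share is lowest there (21.7% and 18.7%).

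The core assembly chaperones were among the least abundant members. Psmg3 rose in TTP-KO from 23.2, 20.1 and 12.5 CPM at 0 h to 69.2, 53.0 and 59.6 CPM at 4 h, without overlap (1.70 ± 0.30, 3.25-fold, edgeR adjusted p = 1.56e-05), the largest called change of the family. In WT it read 26.5, 25.9 and 26.6 CPM and then 47.8, 50.8 and 31.5 CPM, also without overlap, and was not called. Psmg1 read 9.59 and 20.1 CPM on average in WT and 15.9 and 25.9 CPM in TTP-KO at 0 and 4 h (1.07 ± 0.53 and 0.71 ± 0.52, adjusted p = 0.177 and 0.377). Psmg2 and Psmg4 were called in no comparison. In all, edgeR called 21 members in at least 1 comparison over time, 1 (Psmb7) between genotypes, and 24 in none. Between genotypes DESeq2 called Psmd13 at 0 h, Psmb2 at 2 h, and Psma3, Psma7, Psmb7 and Psmd2 at 4 h.

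Whether the chase differed between genotypes was tested directly, as the difference of the 2 log2 changes. No member was called at 1, 2 or 4 h (edgeR), beside 0.0618%, 0.0773% and 0.193% of all genes. Members with an unadjusted p under 0.05 numbered 2, 6 and 7 (4.35%, 13% and 15.2% of the members tested), against 594, 844 and 1144 of all genes (4.59%, 6.52% and 8.84%). DESeq2 called 0, 1 and 0, the 1 being Psmd13 at 2 h (edgeR 0.90 ± 0.24, adjusted p = 0.397; DESeq2 0.0439). Without WT 2 h library B edgeR also called Psmd13, at 1.13 (adjusted p = 0.0155). A member called in 1 genotype alone is therefore not shown to differ between them. Data of this design were also simulated for WT at 4 h against 0 h, with 100 genes changed 2-fold and 100 changed 1.5-fold among 12519. There 49% of the 2-fold and 10% of the 1.5-fold changes were recovered, so many went uncalled. The real comparison called more genes, 875 higher and 1290 lower, which makes the adjusted threshold less strict, so these shares do not carry over to it. The test of the difference of changes was not simulated. An uncalled member is not shown to be unchanged.

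Among 14 partners and regulators of the proteasome, 13 were tested. Pomp, the chaperone that completes the 20S core, rose in TTP-KO from 232.9 ± 25.6 CPM at 0 h to 480.6 ± 139.5 at 4 h (1.04 ± 0.15, edgeR adjusted p = 6.02e-07). In WT it was at 233.8 ± 16.4 and 270.1 ± 8.0 CPM (0.21 ± 0.15, adjusted p = 0.397). At 4 h the TTP-KO libraries ran from 326.3 to 597.8 CPM and the WT libraries from 260.9 to 274.8 CPM, without overlap (0.83 ± 0.15, adjusted p = 0.000831). The difference of the changes, 0.84 ± 0.22, did not pass the test (adjusted p = 0.0992). It did pass without a filter (0.0158), with DESeq2 (0.0166) and without TTP-KO 4 h library A (1.07, 0.000771). Without TTP-KO 4 h libraries B and C, the smallest in the series, the genotype difference was 0.26 (adjusted p = 0.919) and the TTP-KO rise 0.48 (0.0962), and in a fit of the groups compared the genotype adjusted p was 0.0752. Without library B alone the genotype difference was 0.65.

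Of the other partners, Sem1, a small subunit of the lid, rose in TTP-KO (386.4 to 557.2 CPM, 0.53 ± 0.13), a call lost without libraries B and C (edgeR adjusted p = 0.0913). Uchl5, a deubiquitinase of the cap, rose in WT from 18.3 to 41.8 CPM (1.19 ± 0.37) and in TTP-KO from 16.8 to 34.0 CPM (1.01 ± 0.37). Nfe2l2, the stress factor that can drive proteasome genes, fell in both, from 258.7 to 138.9 CPM in WT and from 257.4 to 140.4 CPM in TTP-KO (-0.90 ± 0.14 and -0.87 ± 0.14). Zfand5, a ubiquitin-binding activator of the proteasome, fell in both (-1.23 ± 0.20 and -0.85 ± 0.20) and was higher in TTP-KO at 4 h (0.74 ± 0.20, adjusted p = 0.0383). That difference was lost in a fit of the groups compared (0.247) and in 5 of 6 fits that left out 1 library (adjusted p from 0.0545 to 0.19), and the fall in TTP-KO was lost under library size alone (0.0662) and without TTP-KO 4 h libraries B and C (0.27). Txnl1, a thioredoxin bound to the cap, fell in WT (-0.77 ± 0.24). This call was lost under library size alone (-0.45, edgeR adjusted p = 0.191) and without WT 0 h library B (0.165) or 4 h library B (0.153). Nfe2l1 was not called at 4 h (0.50 ± 0.27 in WT and 0.28 ± 0.27 in TTP-KO, adjusted p = 0.222 and 0.529). In each genotype the same test thus called Uchl5 higher and Nfe2l2 and Zfand5 lower. The Uchl5 calls were lost without any one of 3 libraries in WT (adjusted p from 0.0713 to 0.144) and of 5 in TTP-KO (from 0.0503 to 0.25).

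Of 12 genes of MHC class I processing, which uses the peptides made by the proteasome, none was called higher and several were called lower. In a list of this length such counts are not read as a result. At 4 h 5 fell in WT (B2m, Calr, H2-D1, H2-K1 and Tapbp) and 6 in TTP-KO (the same with Canx). Among all genes 9.97% fell in WT and 10.6% in TTP-KO at that time. The list's median was -0.30 in WT and -0.52 in TTP-KO. H2-D1, a class I heavy chain, fell from 2272 ± 225 to 1032 ± 106 CPM in WT and from 2268 ± 188 to 1060 ± 194 CPM in TTP-KO (-1.14 ± 0.12 and -1.10 ± 0.12, edgeR adjusted p = 2.14e-10 and 5.24e-10). Tapbp, the peptide-loading chaperone tapasin, fell by 0.71 in WT and by 1.06 in TTP-KO on the log2 scale, and was lower in TTP-KO at 4 h (-0.48 ± 0.13, adjusted p = 0.0419), a call lost in 4 of 6 fits that left out 1 library (adjusted p from 0.0757 to 0.293). Tap2 was called lower at 2 h in both genotypes and in neither at 4 h. In WT it read 178.6 CPM at 0 h, 79.4 at 2 h (-1.17 ± 0.21, edgeR adjusted p = 6.92e-05) and 140.7 at 4 h. In TTP-KO it read 127.8, 71.2 and 106.6 CPM at those times. Tap1, which is transcribed away from Psmb9 out of a shared promoter region, was called in no comparison. Under library size alone the calls of B2m in both genotypes, of Calr and H2-K1 in WT and of Canx in TTP-KO were lost (adjusted p from 0.23 to 0.704).

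Ubiquitin supply and shuttle factors were mixed, with 2 of 15 rising and 2 falling in WT at 4 h and 0 rising and 3 falling in TTP-KO. Among all genes 6.76% rose and 9.97% fell in WT, and 7.45% rose and 10.6% fell in TTP-KO. In a list this short such counts are not read as a result. The polyubiquitin gene Ubb fell in both (-0.36 ± 0.09 each). Under library size alone its TTP-KO value was 0.010, and its WT call was lost (edgeR adjusted p = 0.883). Vcp, the unfoldase that hands substrates to the proteasome, rose in WT (329.8 to 478.8 CPM, 0.54 ± 0.13, edgeR adjusted p = 0.00189). Rps27a was the only gene of this list called between genotypes. At 4 h it read 792.6 ± 153.4 CPM in TTP-KO and 507.5 ± 16.3 in WT, without overlap (0.64 ± 0.13, edgeR adjusted p = 0.00173). That call was lost in a fit of the groups compared (0.069), and without TTP-KO 4 h libraries B and C the difference was 0.27. In WT Rps27a fell from 928.9 CPM at 0 h to 507.5 at 4 h.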

How the data were processed

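RNA of 24 basophil libraries was sequenced from its 3' ends after alkylation. The submitters' processing notes name STAR 2.7.10a, cutadapt 3.5, SAMtools and GRCm39. The deposited table gives estimated counts per gene. How the authors counted is not given in the sources used here. Half-lives were obtained with GRAND-SLAM and grandR, per the labels. Of these values 12.81% were not whole, and they were rounded here. A further 144 per-library columns (labelled fractions and their intervals) were not analysed here, so labelled fraction and stability are not described. Columns carry letters in place of the labels' replicate numbers and were tied to groups only.

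One edgeR 4.0.16 quasi-likelihood fit (R 4.3.3, limma 3.58.1) over all 24 libraries used TMM factors and filterByExpr, which left 12936 genes. Adjustment was Benjamini-Hochberg over these, with a threshold of 0.05. Comparisons were TTP-KO against WT at each time, each later time against 0 h within a genotype, and how those changes differed. Alternatives were DESeq2 1.42.0, other scalings, no filter, a fit of only the groups compared, and leaving out libraries. The fit was tested on simulated data of 12519 genes, where it made 3 false calls. Within groups, 24 pairs of libraries differed by more than sampling noise (chi-square per degree of freedom 29.5 to 77.2).

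Members, gene lists and tests were chosen with earlier results of these data known. Members named with full values are those called in a comparison (where more than 8 passed, the 4 largest each way), 10 fixed members, and Zfp36, Nfe2l1 and Pomp. Promoters come from RefSeq and 3' untranslated regions from GENCODE, both of GRCm38, and were used for sequence only. 19 rows without a symbol could not be matched. One gene of the ubiquitin list is not reported here.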

Additional observations from a re-analysis of the deposited data

How the results depend on the processing

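No paired analysis was possible because the table's columns carry letters and not the labels' replicate numbers, and what the letters mark is not stated in the sources used here. Of 47 member calls, 47 were kept with DESeq2 and with its size factors, 43 with library size alone, 46 without a filter, 42 in fits of the groups compared, 12 of 16 without TTP-KO 4 h libraries B and C, and 23 in every fit that left out 1 library. No call changed sign. Over 10 fixed members and 13 comparisons, 41 of 130 values changed sign in some alternative, 0 of them called and none above 0.36 in size.

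Members called moved with the setting. For TTP-KO against WT the counts were 1 at 0 h with library size alone, no filter, DESeq2 or the groups compared, 1 at 2 h with no filter or DESeq2, and, at 4 h, 4 with DESeq2 and 0 with the groups compared or without TTP-KO 4 h libraries B and C. In WT the 1 h count was 1, 2 and 1 with library size alone, DESeq2 and the groups compared, the 2 h count 13 and 8 with library size alone and DESeq2, and the 4 h count 21 with library size alone. In TTP-KO library size alone gave 1, 19 and 29, and the groups compared gave 1 at 1 h. DESeq2 gave 1 for the difference of changes at 2 h. Leaving out 1 library gave 0 to 1 (TTP-KO against WT, 0 h and 2 h; difference of changes, 2 h; TTP-KO, 1 h), 0 to 3 (TTP-KO against WT, 4 h), 3 to 4 (WT, 2 h) and 7 to 11 (WT, 4 h).

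Uncalled values near 0 changed sign. Psmb10 became 0.16 (TTP-KO, 4 h, library size alone; -0.50 to 0.100 leaving out 1 library) and -0.75 (genotype, 4 h, without TTP-KO 4 h B and C; -0.20 to 0.40). Psmb5 between genotypes at 4 h became 0.017 with either size factor, 0.018 with DESeq2 and 0.26 without TTP-KO 4 h B and C (-0.18 to 0.063). Psme2 at 4 h became 0.15 in WT and 0.16 in TTP-KO with library size alone, and -0.19 between genotypes without B and C; in TTP-KO at 1 h it ran from -0.21 to 0.072. Psmb7 in WT at 4 h ran from -0.12 to 0.21. With library size alone Ubb in TTP-KO at 4 h became 0.010.

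With Psmb8 and Psmb5 alone the inducible share at 0, 1, 2 and 4 h was 54.8%, 41.2%, 34.3% and 27.1% in WT and 51.7%, 34.1%, 31.0% and 30.1% in TTP-KO. The share over all 6 genes was 18.2% at 4 h in TTP-KO library A, the value left without B and C. With library size alone the summed level was 3357, 3679, 4228 and 4922 CPM in WT and 3254, 3675, 4485 and 5486 CPM in TTP-KO, and with DESeq2 size factors 4866 CPM at 4 h in TTP-KO. The cause of these shifts was not tested.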
